A study of Mus musculus with 19 samples.

Results

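Of 10 genes of the choroid plexus epithelium, all 10 had values in sorted astrocytes, 3 in sorted microglia and 2 in sorted monocytes of mice with experimental autoimmune encephalomyelitis (EAE). The genes are Ttr, Enpp2, Kl, Rarres2, Folr1, Prlr, Clic6, Kcne2, Igfbp2 and Calml4. They were listed by name, ignoring letter case, with earlier results of these data known. The tables that held them listed 6376 genes for astrocytes, 3067 for microglia and 3776 for monocytes. EAE is a mouse model of multiple sclerosis in which an immune response against myelin is induced.

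All mice were female wild type C57Bl/6 animals at postnatal day 85, and all carried a lentivirus and had EAE. The virus was injected into the brain. It carried GFP and a hairpin under the promoter of Gfap, an astrocyte gene. The hairpin was a scrambled control (pLenti-Gfap-GFP-shScramble, called shScrmbl) or was aimed at Xbp1 (pLenti-Gfap-GFP-shXbp1, called shXbp1), a transcriptional regulator that responds to unfolded proteins. EAE was then induced with 25 µg of MOG35-55 in complete Freund's adjuvant. The nervous system of each mouse was dissociated with trypsin and its cells were sorted by flow cytometry. There were 4 shScrmbl and 4 shXbp1 libraries of astrocytes, 4 and 3 of microglia, and 2 and 2 of monocytes, 19 in all. The labels name no step that removes the choroid plexus, no antibodies and no gate on GFP, and leave unstated whether astrocyte, microglia and monocyte libraries of 1 number share a mouse. No group lacked EAE or virus, so the effect of either is outside these comparisons.

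The choroid plexus is a folded tissue in the brain ventricles whose epithelium secretes cerebrospinal fluid. Its cells form a tight barrier between blood and fluid, carry nutrients across it, and release hormone carriers and growth factor binding proteins. Ttr (transthyretin), which carries thyroid hormone, is its best known product and one of the most abundant transcripts of the tissue. Neither astrocytes nor myeloid cells are textbook sources of Ttr.

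In astrocytes the ratio of Kl, Prlr, Igfbp2 and Enpp2 to Ttr was high in the same 3 libraries, while that of Kcne2 and Calml4 was not. Enpp2 had no promoter entry here, and the promoters below are of the 5 members that had an entry. They are 5′ to 3′ windows from 250 bases before to 50 after a RefSeq transcription start on GRCm38.p6, and Prlr, Igfbp2 and Kcne2 are shown at the first of several starts. Capitals mark matches, on either strand, to GGGCGG (a GC box), whose reverse complement reads CCGCCC, and to CCAAT. Both strands were also searched for a TATA box core (TATAAA), for a forkhead core (TGTTTAC) and for the core bound by OTX2, a factor of choroid plexus development (TAATCC).
Kl promoter, chr5:150952357-150952656, plus strand: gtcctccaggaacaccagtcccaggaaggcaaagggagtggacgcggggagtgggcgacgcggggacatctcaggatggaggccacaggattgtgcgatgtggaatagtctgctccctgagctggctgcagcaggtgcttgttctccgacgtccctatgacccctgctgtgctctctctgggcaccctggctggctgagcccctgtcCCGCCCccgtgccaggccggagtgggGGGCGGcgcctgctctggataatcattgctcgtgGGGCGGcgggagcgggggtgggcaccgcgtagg
Prlr promoter, chr15:10176988-10177287, plus strand: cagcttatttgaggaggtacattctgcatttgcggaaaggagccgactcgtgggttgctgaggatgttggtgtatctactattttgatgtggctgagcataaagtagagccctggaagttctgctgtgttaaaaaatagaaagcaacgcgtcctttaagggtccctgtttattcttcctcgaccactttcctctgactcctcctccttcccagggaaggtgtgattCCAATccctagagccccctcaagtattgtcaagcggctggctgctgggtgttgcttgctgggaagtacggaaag
Igfbp2 promoter, chr1:72824230-72824529, plus strand: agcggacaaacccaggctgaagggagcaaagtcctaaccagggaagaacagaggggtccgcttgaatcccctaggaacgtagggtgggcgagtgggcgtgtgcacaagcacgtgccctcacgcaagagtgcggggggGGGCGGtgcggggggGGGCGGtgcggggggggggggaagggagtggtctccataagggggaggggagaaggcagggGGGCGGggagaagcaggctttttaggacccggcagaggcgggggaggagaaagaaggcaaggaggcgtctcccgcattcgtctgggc
Kcne2 promoter, chr16:92292139-92292438, plus strand: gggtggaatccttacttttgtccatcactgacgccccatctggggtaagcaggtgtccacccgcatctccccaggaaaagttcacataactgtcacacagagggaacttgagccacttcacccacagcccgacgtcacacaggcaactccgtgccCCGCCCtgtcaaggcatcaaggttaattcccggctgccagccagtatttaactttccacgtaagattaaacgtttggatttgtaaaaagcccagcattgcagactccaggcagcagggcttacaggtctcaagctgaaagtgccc
Calml4 promoter, chr9:62857854-62858153, plus strand: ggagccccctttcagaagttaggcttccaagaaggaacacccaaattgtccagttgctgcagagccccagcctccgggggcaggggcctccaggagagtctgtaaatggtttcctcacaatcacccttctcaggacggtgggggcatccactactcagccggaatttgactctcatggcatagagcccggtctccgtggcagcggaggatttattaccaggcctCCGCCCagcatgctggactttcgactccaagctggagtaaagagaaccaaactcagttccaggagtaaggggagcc
The GC box was found in Kl, Igfbp2, Kcne2 and Calml4 and in 35.7% of all 32851 promoter windows of this length. The CCAAT box was found in Prlr and in 37.4% of all windows. Among the 9 windows of the 5 members with an entry, TGTTTAC was present in another start of Prlr and in 3.65% of all windows. TATAAA and TAATCC were in none of the 9, against 13.6% and 7.06% of all. The Kl window held 19 CG pairs and the Igfbp2 window 18, the Kcne2 window 9, and the Prlr and Calml4 windows 8 each, where the median of all windows was 7. The motifs thus did not separate the 3 shown genes whose ratio was high together from the other 2. The GC box was in both kinds, and the contrast was drawn after the values were seen. The windows describe letters only and show nothing of binding.

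On GRCm38, Kl lies on chromosome 5 (150952607-150993817, plus strand) and Prlr on chromosome 15 (10177238-10349180, plus). Enpp2 is also on chromosome 15 (54838901-54952892, minus), and Folr1 is on chromosome 7 (101858331-101870788, minus). Clic6 (92485736-92541243, plus) and Kcne2 (92292389-92298129, plus) are both on chromosome 16. Igfbp2 lies on chromosome 1 (72824503-72852474, plus), Calml4 on chromosome 9 (62858080-62875921, plus) and Rarres2 on chromosome 6 (48569696-48572789, minus). The counts are of transcript 3′ ends, with no division by transcript length, so 1 transcript of any length gives 1 end. Whether each count stands for a molecule or for a read is not stated in the labels.

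Depth was 32842 to 302003 counts per library in astrocytes, 10039 to 122002 in microglia and 15654 to 112676 in monocytes. The targeted gene Xbp1 did not separate the groups in astrocytes: its signal was 20.1, 71.7, 79.9 and 27.6 with shScrmbl, against 34.1, 52.9, 31.2 and 79.7 with shXbp1. In microglia it was 51.9, 50.5, 103 and 0 against 76.0, 69.0 and 0, and in monocytes 126 and 182 against 303 and 126. The groups overlapped in all 3 cell types, and limma gave log2 differences of 0.12, -0.39 and 0.37 (adjusted p = 0.966, 0.997 and 0.914). Many of these values lie at the counting floor. In astrocytes the signal was that of 1 count in shScrmbl 1 and 4 and of 3 counts in shScrmbl 3 and shXbp1 3. In microglia it was that of 1 count in shScrmbl 1, shXbp1 1 and shXbp1 2. So few counts cannot show whether the hairpin lowered Xbp1. Of 20 astrocyte markers 17 had values in the astrocyte table, with a summed share of 0.546% to 0.846% of counts. Gfap, Cldn10 and Ntsr2 were not listed there. The same list summed to 0.897% to 3.08% in microglia (6 listed) and 0.632% to 2.01% in monocytes (5 listed). Its sum was thus not particular to sorted astrocytes. All 15 microglia markers were listed in microglia, with a summed share of 1.21% to 2.05%, and 13 of 14 monocyte markers in monocytes, with 0.830% to 2.31%. Microglia markers summed to less in astrocytes (0.167% to 0.441%) and monocytes (0.383% to 0.562%). Monocyte markers summed to 0.0437% to 0.386% in astrocytes and to 0.329% to 2.31% in microglia, which overlapped with monocytes.

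Ttr was the most abundant member in every library. In astrocytes it took 26.7%, 20.5%, 22.3% and 21.9% of counts in shScrmbl replicates 1 to 4, and 16.8%, 23.2%, 14.2% and 21.2% in shXbp1 replicates 1 to 4. In these libraries Ttr alone exceeded the summed share of the astrocyte markers, and shXbp1 1 and 3 were the lowest while the 2 groups overlapped. Microglia had 6.25%, 1.86%, 2.07% and 1.69% with shScrmbl and 5.12%, 3.32% and 3.59% with shXbp1, where shScrmbl 1 stood above all others. Monocytes had 0.343% and 0.441% with shScrmbl and 0.945% and 0.406% with shXbp1, where shXbp1 1 was the highest. The ranges of the 3 cell types did not overlap. Mean Ttr share was 20.8% ± 3.83 (SD, n = 8) in astrocytes, 3.41% ± 1.74 (n = 7) in microglia and 0.534% ± 0.277 (n = 4) in monocytes, 6.11-fold from the first to the second and 6.39-fold from the second to the third. Each table was normalized, and by its minimum counts apparently filtered, on its own, so no test was made across cell types. In bulk libraries more cells with Ttr RNA and more of it per cell cannot be told apart, and its source was not tested.

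Enpp2 encodes autotaxin, a secreted enzyme that makes lysophosphatidic acid, and was second to Ttr throughout. Its share in astrocytes was 3.47%, 1.87%, 1.32% and 1.30% with shScrmbl and 2.36%, 2.23%, 2.17% and 2.57% with shXbp1. In microglia it was 0.592%, 0.129%, 0.123% and 0.0503% with shScrmbl and 0.149%, 0.263% and 0.251% with shXbp1. Monocytes had 0.0175% and 0.0293% with shScrmbl and 0.0703% and 0.0318% with shXbp1. The same libraries led as for Ttr: shScrmbl 1 in astrocytes, shScrmbl 1 in microglia and shXbp1 1 in monocytes. Mean Enpp2 share was 2.16% ± 0.702 in astrocytes, 0.223% ± 0.179 in microglia and 0.0372% ± 0.0229 in monocytes. Astrocytes did not overlap with the others, while microglia and monocytes overlapped.

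Folr1 encodes folate receptor alpha, which carries folate into cerebrospinal fluid. It had 51, 226, 35 and 21 counts in shScrmbl and 31, 207, 58 and 161 in shXbp1 astrocytes, a share of 0.0582% to 0.101%. In microglia it had 4, 7, 5 and 1 counts with shScrmbl and 0, 5 and 5 with shXbp1, a share of 0% to 0.0375%. The 0 in shXbp1 1, the shallowest library, allows a share of up to 0.0299% (3 counts), which reaches into the range of the other microglia libraries. Astrocytes and microglia did not overlap. Folr1 was not listed in monocytes. The Ttr, Enpp2 and Folr1 shares are set side by side in the plot of share by library.

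**Figure D1:**
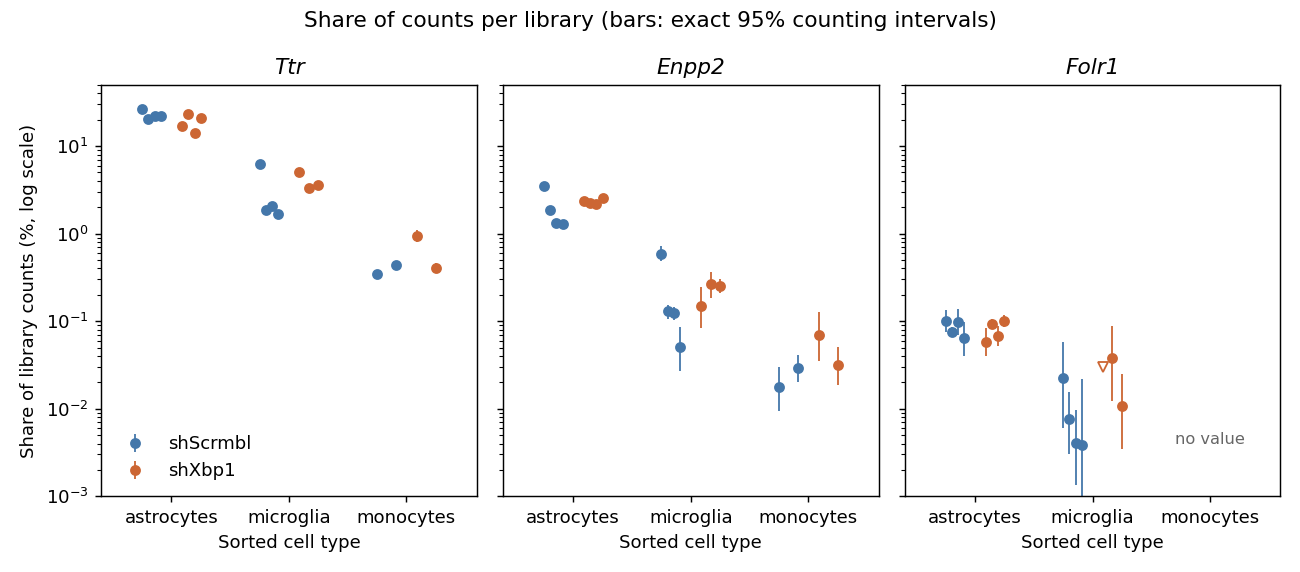
Share of library counts (percent, log scale) of Ttr, Enpp2 and Folr1 in each library by sorted cell type, blue for shScrmbl and orange for shXbp1, with exact 95% counting intervals (1 lower Folr1 bar runs past the axis). The open triangle marks the limit of 0.0299% that a count of 0 allows, and "no value" marks Folr1 in monocytes; Ttr fell into 3 separate ranges, from 14.2% or more in astrocytes to 0.945% or less in monocytes.

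The ratio of a member to Ttr in the same library sets a member against the Ttr RNA that the library held. Pooled over astrocytes, Enpp2 had 104 counts per 1000 Ttr counts (exact 95% counting interval 102 to 105), over microglia 66.0 (60.4 to 71.9) and over monocytes 66.4 (51.8 to 83.9). At the astrocyte ratio microglia would have held 875 Enpp2 counts and held 556, and monocytes would have held 117 and held 75. The pooled ratio was thus lower in both myeloid tables than in astrocytes by more than counting error. Between libraries, though, it spread from 59.2 to 152 in astrocytes, from 29.2 to 94.7 in microglia and from 51.0 to 78.3 in monocytes, and these ranges overlapped. Enpp2 is also made by oligodendrocytes, whose 10 listed markers summed to 0.472%, 0.483%, 0.443% and 1.04% of counts in shScrmbl and 0.894%, 0.381%, 0.570% and 0.328% in shXbp1 astrocytes. These 10 include Trf, with 1594 counts over the astrocyte libraries, which is also on the list of choroid plexus secreted proteins. The part of oligodendrocyte RNA in the Enpp2 values was not tested.

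Folr1 kept nearly the astrocyte ratio in microglia: 4.02 per 1000 Ttr counts (3.74 to 4.31) against 3.20 (2.11 to 4.67), with 27 counts where 33.9 would be had at the astrocyte ratio. Of 8 other choroid plexus genes with values in both tables, 5 had intervals that overlapped between them. Kcnj13, a potassium channel gene of the epithelium, had 3.53 (3.27 to 3.80) against 3.09 (2.01 to 4.52). Another name on the list of secreted products, 1500015O10Rik (Ecrg4), had 3.61 against 4.15 (2.89 to 5.78). The other 3 of the 8 were above the astrocyte interval in microglia. Cst3, which encodes cystatin C, had 3.96 per 1000 Ttr counts in astrocytes, 117 in microglia and 342 in monocytes, and Trf (transferrin) 8.11, 47.8 and 150. Slc31a1, a copper transporter gene, had 0.661, 2.97 and 12.4. Every listed gene in the microglia table had at least 15 counts in all. This minimum hides low ratios, so the overlap among listed genes cannot show that the ratio was kept in general. Ezr and Slc12a2, 2 of the 5 that overlapped, would have held 12.4 and 12.5 counts at the astrocyte ratio. They held 19 and 15. At the astrocyte ratio 5 of the 9 members other than Ttr would reach 15 counts there, and 2 of the 5 were listed. Unlisted though they would reach it were Prlr (34.2 counts at the astrocyte ratio), Clic6 (21.5) and Calml4 (18.2). Of 37 other choroid plexus genes 7 would reach it and 5 of these were listed. The 2 unlisted were F5 (15.6) and Atp1b1 (15.2). In monocytes, where the minimum was 9, Enpp2 alone of the members would reach it and was listed. Of 37 other choroid plexus genes 6 were listed in monocytes, and 5 of these would not reach 9 at the astrocyte ratio. All 6 had intervals above the astrocyte interval and 0 overlapped. They include Ezr (17.7 against 1.48) and Cab39l (9.73 against 3.23), whose intervals overlapped in microglia.

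**Figure D2:**
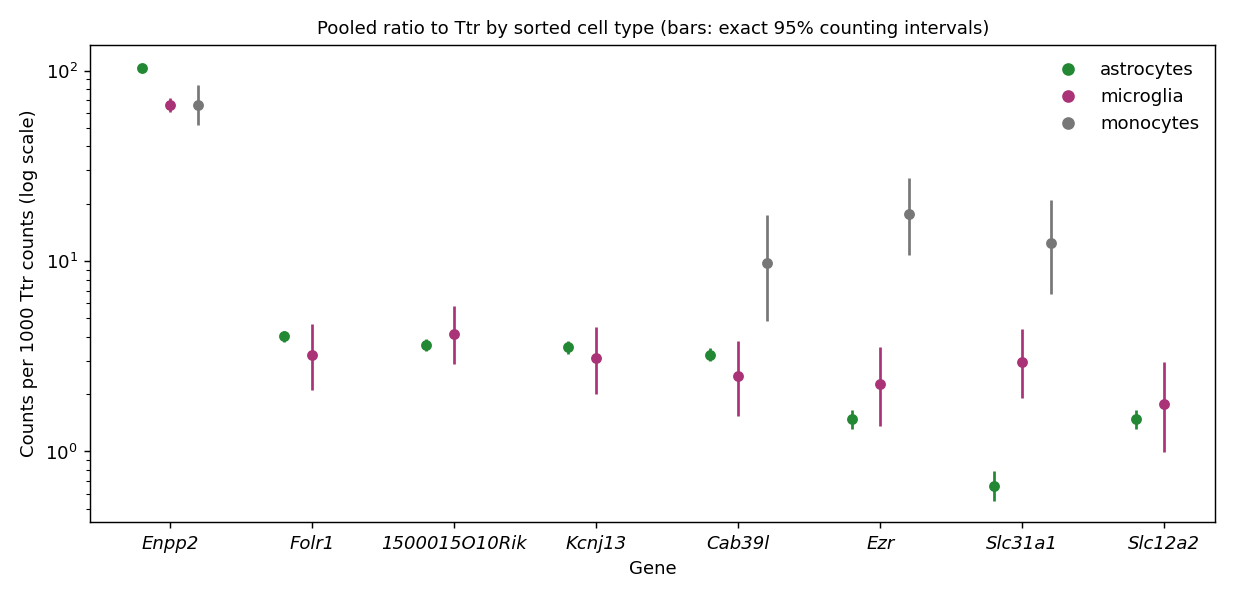
Counts per 1000 Ttr counts (log scale) of Enpp2, Folr1 and 6 other choroid plexus genes with values in microglia, pooled over the libraries of astrocytes (green), microglia (purple) and monocytes (grey), with exact 95% counting intervals that leave out the spread between libraries. Folr1, 1500015O10Rik, Kcnj13, Cab39l, Ezr and Slc12a2 have overlapping intervals in astrocytes and microglia. Enpp2 was lower in microglia (66.0 against 104) and Slc31a1 higher (2.97 against 0.661). Every gene listed in microglia had at least 15 counts, so genes with lower ratios may be missing.

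Within astrocytes the members ran in this order of mean share after Ttr and Enpp2: Prlr 0.0952% ± 0.0606 (SD, n = 8), Folr1 0.0824% ± 0.0181, Clic6 0.0527% ± 0.0245, Calml4 0.0478% ± 0.0135, Kl 0.0372% ± 0.0277, Igfbp2 0.0197% ± 0.0124, Rarres2 0.0151% ± 0.00950 and Kcne2 0.0148% ± 0.00491. Ttr and Enpp2 were each apart from the member that followed, while every later neighbour overlapped with the next. All 10 had a count in every astrocyte library and all passed the filter on low values.

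Among receptors, Prlr, the prolactin receptor, varied most relative to Ttr. It had 83, 120, 7 and 10 counts in shScrmbl and 81, 179, 136 and 182 in shXbp1 astrocytes. Per 1000 Ttr counts this was 6.17, 1.94, 0.887 and 1.39 in shScrmbl and 9.05, 3.49, 11.2 and 5.39 in shXbp1. The highest, shXbp1 3 (11.2, counting interval 9.38 to 13.2), was 12.6 times the lowest, shScrmbl 3 (0.887, 0.356 to 1.83), and the groups overlapped through shScrmbl 1. Kl encodes klotho, the co-receptor of FGF23, which is also shed into cerebrospinal fluid. It had 46, 29, 7 and 4 counts with shScrmbl and 21, 71, 54 and 48 with shXbp1, or 3.42, 0.469, 0.887 and 0.556 against 2.35, 1.39, 4.44 and 1.42 per 1000 Ttr counts. As with Prlr, shXbp1 3 was highest and shScrmbl 1 was far above the other shScrmbl libraries. Folr1 had the narrowest spread of the 9: its ratio was 3.79, 3.65, 4.43 and 2.92 in shScrmbl and 3.46, 4.04, 4.77 and 4.77 in shXbp1, 1.63 times from lowest to highest.

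Among secreted proteins, Enpp2 had 130, 91.2, 59.4 and 59.2 counts per 1000 Ttr counts in shScrmbl and 140, 96.3, 152 and 121 in shXbp1 astrocytes. The same 3 libraries, shScrmbl 1, shXbp1 1 and shXbp1 3, were again highest, with intervals as narrow as 145 to 160 in shXbp1 3 and 53.6 to 65.3 in shScrmbl 4. Igfbp2, which binds insulin-like growth factors, had 21, 14, 6 and 2 counts in shScrmbl and 16, 28, 21 and 33 in shXbp1. Its ratio was 1.56, 0.226, 0.760 and 0.278 against 1.79, 0.546, 1.73 and 0.977, with the same 3 libraries on top and overlapping groups. Rarres2 encodes chemerin, a chemoattractant of myeloid cells. It had 2, 2, 7 and 8 counts in shScrmbl and 8, 60, 17 and 16 in shXbp1, or 0.149, 0.0323, 0.887 and 1.11 against 0.893, 1.17, 1.40 and 0.474 per 1000 Ttr counts. Unlike the others it was lowest in shScrmbl 1 and 2.

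Ependymal cells line the same ventricles, and the sum of their 12 listed markers (of 16; Foxj1 was not listed) moved with Rarres2. The sum was 0.0496%, 0.0417%, 0.172% and 0.250% of counts in shScrmbl and 0.109%, 0.196%, 0.158% and 0.104% in shXbp1. The Rarres2 share was 0.00397%, 0.000662%, 0.0197% and 0.0244% in shScrmbl and 0.0150%, 0.0271%, 0.0199% and 0.0101% in shXbp1. The lowest 2 libraries were the same for both, as were the highest 2, shScrmbl 4 and shXbp1 2. The lowest 2, shScrmbl 1 and 2, were also lowest for stromal markers (0.278% and 0.211%) and astrocyte markers (0.546% and 0.575%). Stromal and astrocyte markers were highest in shScrmbl 3 and 4. The low end was thus not particular to ependymal markers, and Rarres2 had very few counts there. The part of ependymal RNA in the Rarres2 values was not tested.

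Among channels and other cytoplasmic genes, Clic6, of the chloride intracellular channel family, had 30, 71, 10 and 10 counts in shScrmbl and 31, 145, 50 and 155 in shXbp1 astrocytes. Its ratio to Ttr was 2.23, 1.15, 1.27 and 1.39 in shScrmbl and 3.46, 2.83, 4.11 and 4.59 in shXbp1, so that the groups did not overlap (mean 1.51 ± 0.491 against 3.75 ± 0.767, SD, n = 4 and 4). Clic6 was 1 of 9 members with such a gap, and 5.1% of 6375 genes had their ratio to Ttr higher in all shXbp1 than in all shScrmbl libraries, against 0.125% lower. Kcne2, an accessory subunit of potassium channels, had a ratio of 0.743, 0.760, 0.633 and 0.278 in shScrmbl and 0.782, 0.702, 0.822 and 1.04 in shXbp1, from 2 to 47 counts. Calml4, a calmodulin-like protein gene, had 2.75, 1.52, 1.65 and 2.36 against 2.23, 2.34, 3.04 and 2.55. Kcne2 and Calml4 overlapped between the groups, with most library intervals overlapping too.

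The 3 libraries shScrmbl 1, shXbp1 1 and shXbp1 3 thus held the 3 highest ratios to Ttr for 4 of 9 members: Enpp2, Kl, Prlr and Igfbp2. This pattern was noticed after the values were seen. Over all 6375 genes 5.77% had it, and of 37 other choroid plexus genes 8 did: Slc4a2, Slc12a2, Atp2b3, Trpm3, Sostdc1, Krt8, Col8a1 and Otx2. These 3 libraries include the highest and the lowest 2 Ttr shares of the 8 (26.7%, 16.8% and 14.2%), and both viruses. Their depths (50392, 53228 and 85398 counts) were neither the lowest nor the highest. Stromal and meningeal fibroblast markers (8 of 12 listed, Ptgds with most counts) summed to 0.278%, 0.319% and 0.334% there and to 0.211% to 0.554% in the other 5, so they did not set the 3 apart.

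**Figure D3:**
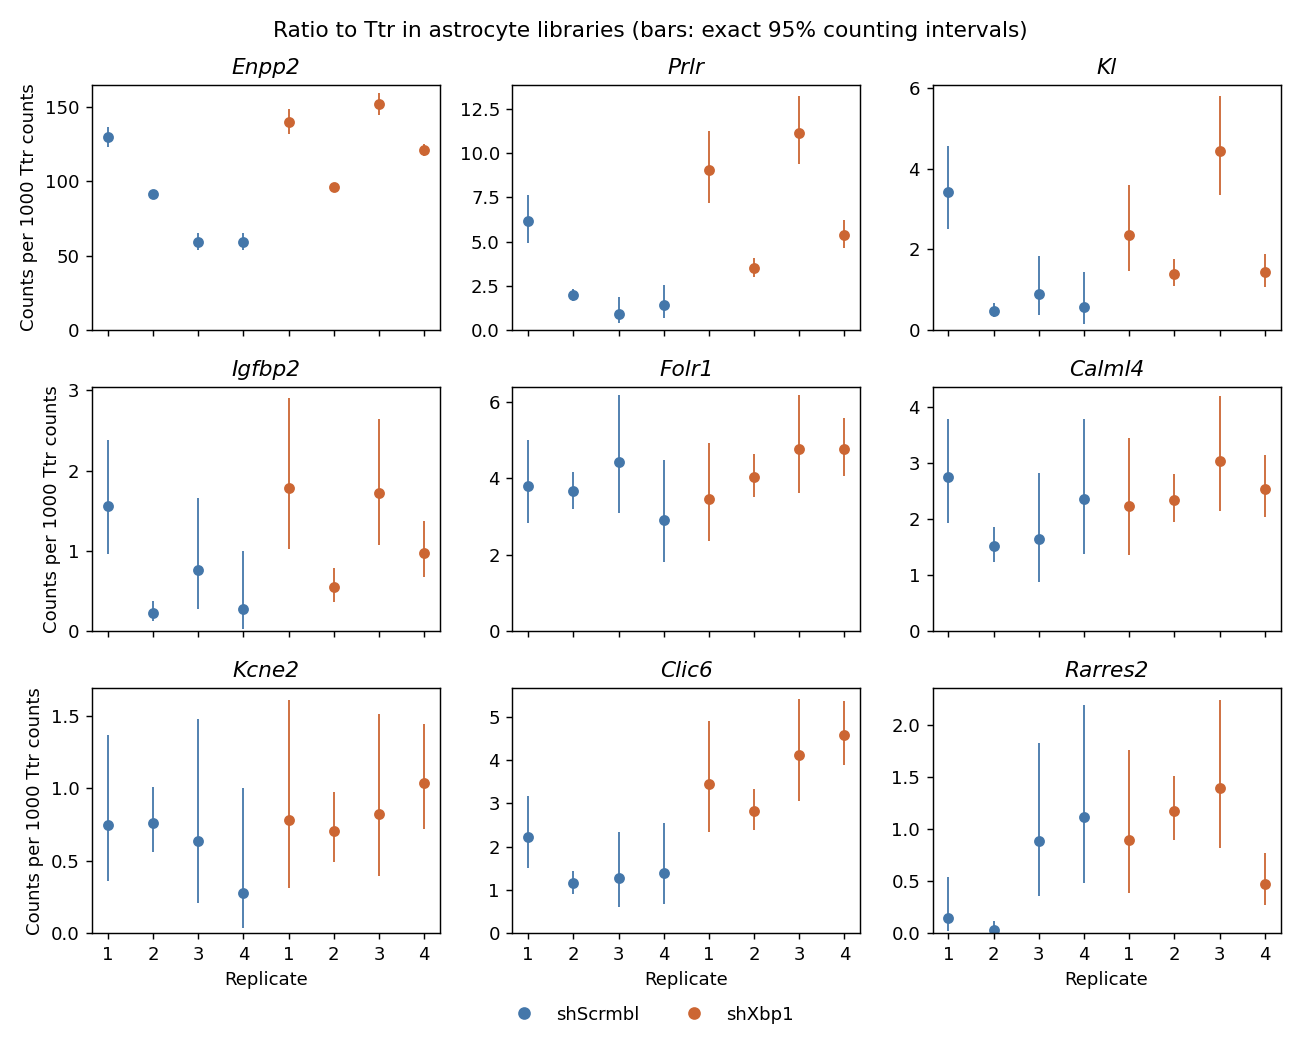
Counts per 1000 Ttr counts of 9 members in the 8 astrocyte libraries (x axis: replicates 1 to 4 of shScrmbl in blue, then 1 to 4 of shXbp1 in orange), with exact 95% counting intervals. Enpp2, Prlr, Kl and Igfbp2 peak in shScrmbl 1, shXbp1 1 and shXbp1 3; Clic6 lies at 1.15 to 2.23 in shScrmbl and 2.83 to 4.59 in shXbp1; Folr1 stays between 2.92 and 4.77.

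Whether the hairpin against Xbp1 went with a change of these genes was asked within each cell type. The mean Ttr share in astrocytes was 22.8% ± 2.69 with shScrmbl and 18.9% ± 4.06 with shXbp1 (SD, n = 4 and 4), a difference of -3.98 percentage points. In microglia it was 2.97% ± 2.20 and 4.01% ± 0.972 (n = 4 and 3), a difference of 1.04, and in monocytes 0.392% ± 0.0693 and 0.676% ± 0.381 (n = 2 and 2), a difference of 0.284. None passed an exact two-sided permutation test: p = 0.229, 0.4 and 0.667, adjusted over the 3 cell types 0.6, 0.6 and 0.667. The smallest p such a test allows is 0.0286 in astrocytes and microglia and 0.333 in monocytes. P-values measure only the spread between these libraries.

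In the fit across all genes of the astrocyte table (limma on log2(signal + 1), Benjamini-Hochberg), 0 of 10 members and 0 of 6366 genes (0%) passed an adjusted p of 0.05, with 298 genes at an unadjusted p under 0.05. With edgeR on the recovered counts 0 of 10 members and 1 gene (0.0157%) passed, and with DESeq2 none (0). Unadjusted p was under 0.05 by limma for 2 members, Clic6 and Prlr, both higher in shXbp1, beside 4.13% of all genes in that direction. By edgeR it was under 0.05 for 1 member, Clic6, beside 3.67% of all genes in that direction. Clic6 had a signal of 602, 299, 266 and 276 in shScrmbl and 529, 698, 520 and 1029 in shXbp1, overlapping through shScrmbl 1. Its log2 difference was 0.97 ± 0.34 (SE, 95% interval 0.27 to 1.67, limma adjusted p = 0.824; edgeR 0.96, adjusted p = 0.652). Prlr had a log2 difference of 1.39 ± 0.61 (0.0056 to 2.77, limma adjusted p = 0.824) and 0.86 by edgeR (adjusted p = 0.815). The Prlr share of shScrmbl 1 (0.165%) was above the 0.0197% to 0.0397% of the other 3. Without shScrmbl 1 edgeR gave Prlr 1.77 with an adjusted p of 0.00219, while limma still called no member. This library was singled out after its high Prlr value was seen. The adjusted p without it thus cannot be read as a test of Prlr.

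The other members had wide intervals around 0. Ttr had a log2 difference of -0.36 (95% interval -0.89 to 0.16), Folr1 -0.16 (-0.78 to 0.46) and Calml4 -0.035 (-0.71 to 0.64), above 0 with another scaling. Differences above 0 were those of Rarres2 (1.39, -0.70 to 3.48), Kl (0.81, -0.43 to 2.05), Igfbp2 (0.74, -0.39 to 1.88), Enpp2 (0.28, -0.55 to 1.11) and Kcne2 (0.19, -0.78 to 1.16), the last below 0 by DESeq2. In all, 7 of 10 members were above 0 by limma and by edgeR, where 68.2% of all genes were so by limma and 53.5% by edgeR. The members' median was 0.51 by limma and 0.21 by edgeR, against 0.42 and 0.052 over all genes. By limma the members thus lay close to the table as a whole. Genes at 0 numbered 1118, 30, 1501 and 1605 in shScrmbl and 768, 18, 254 and 50 in shXbp1 astrocyte libraries, while every member had counts throughout. The part of these zeros in the limma values over all genes was not tested.

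Microglia and monocytes gave no call for a member either. In microglia limma called 0 of 3 members and 0 of 3066 genes (0%), with 166 genes at an unadjusted p under 0.05, and edgeR 12 genes (0.391%), no member among them. Ttr had a log2 difference of 0.43 (-0.26 to 1.12, limma adjusted p = 0.814) and Enpp2 0.33 (-1.60 to 2.27). Folr1 changed sign with the test, at -1.16 (-5.12 to 2.80) by limma and 0.91 by edgeR, with a 0 in 1 library. All microglia genes had a median of -0.39 by limma and -0.09 by edgeR. Without shScrmbl 1 the other shScrmbl libraries had Ttr shares of 1.69% to 2.07%, below all 3 shXbp1 libraries (3.32% to 5.12%). The difference of means was then 2.14 percentage points in place of 1.04. This library was singled out after its Ttr share of 6.25% was seen, and with it the groups overlapped. How many of all microglia genes separate without it was not counted, so the gap cannot be read as particular to Ttr. In monocytes limma called 101 of 3775 genes (2.68%) and edgeR 1 (0.0265%), with 0 of 2 members in both. Ttr was at 0.58 (-0.59 to 1.75, limma adjusted p = 0.887) and Enpp2 at 0.97 (-0.43 to 2.36), against medians of all genes of -0.42 by limma and -0.17 by edgeR. Without shXbp1 2, leaving 1 shXbp1 library that is assumed to vary like the others, Ttr was called at 0.90 by limma (adjusted p = 0.00557) and 0.89 by edgeR (adjusted p = 0.00116). That call rests on shXbp1 1, the shallowest monocyte library.

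**Figure D4:**
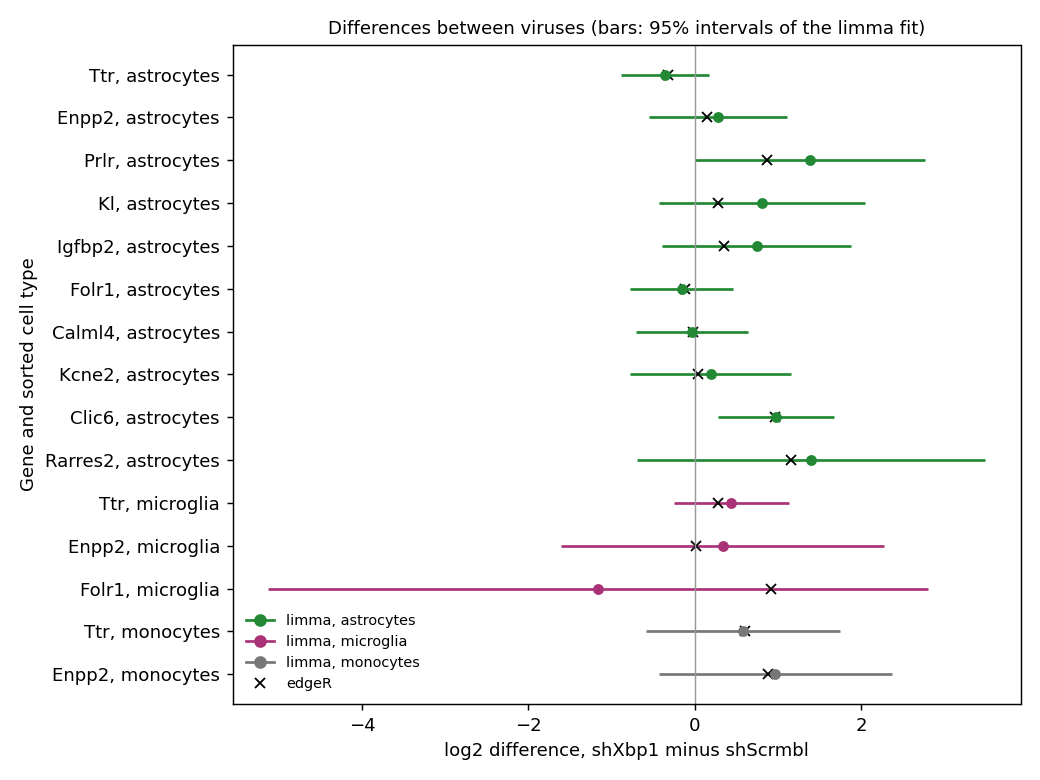
Log2 difference (shXbp1 minus shScrmbl) of each member in each cell type where it was listed, with the limma estimate and its 95% interval (points, coloured by cell type) and the edgeR estimate (crosses). The intervals of Clic6 and Prlr in astrocytes lie above 0 before adjustment, and limma and edgeR differ in sign for Folr1 in microglia.

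Most other listed choroid plexus genes were also in the astrocyte table, but Aqp1, Slc16a8, Trpv4, Wfikkn2, Cldn3, Cdh3 and Msx1 were not. Of 44 other choroid plexus genes (ion and solute transporters, secreted proteins, and epithelial structure and transcription factor genes) 37 had values, and they summed to 0.725% to 1.17% of counts in shScrmbl and 0.909% to 1.03% in shXbp1 libraries. Those with the most counts were Trf (1594, also an oligodendrocyte gene), Cst3 (778), 1500015O10Rik (710) and Kcnj13 (693). None passed in limma or edgeR. By limma 28 were above 0 and 9 below, with a median of 0.60, beside 68.2% above 0 and a median of 0.42 over all genes. By edgeR 27 were above and 10 below, with a median of 0.16, beside 53.5% and 0.052. Unadjusted limma p was under 0.05 for 4 of 37, all higher in shXbp1, beside 4.13% of all genes in that direction: Ezr, the membrane linker ezrin (log2 difference 0.99), Abca4 (1.23), Atp1b1, a sodium pump subunit (0.86), and Vat1l (1.15). Those 4 and Igfbpl1 were also the 5 of 37 whose ratio to Ttr did not overlap between the groups, as with Clic6, beside the 5.1% of all genes given above. Igfbpl1 had 1, 2, 0 and 0 counts in shScrmbl and 4, 6, 2 and 3 in shXbp1, too few to establish its gap. The 9 members other than Ttr summed to 1.52% to 4.02% of counts in shScrmbl and 2.61% to 3.02% in shXbp1.

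In microglia the 3 listed stromal markers summed to 0.0559%, 0.0183%, 0.0598% and 0.0155% of counts in shScrmbl and 0.159%, 0.0751% and 0.0773% in shXbp1, above all shScrmbl libraries. Ptgds, a prostaglandin synthase gene of the meninges and choroid plexus, gave 124 of these counts. The signal of Ptgds did not overlap between the groups, as for 2.31% of all microglia genes in that direction, while 0 of 3 members had such a gap. Their part in the Ttr values was not tested. Ependymal markers were not listed in microglia or monocytes (0 of 16 in each).

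Ttr was last compared with single genes over libraries, after each group's mean was removed. Among 1014 genes with a count in every astrocyte and microglia library, those most like Ttr on the smaller of both Pearson coefficients included Ldhb (0.91 over 8 astrocyte and 0.94 over 7 microglia libraries), Ndufa4 (0.87 and 0.90), Clu (0.85 and 0.75) and Churc1 (0.73 and 0.71). Ldhb encodes a lactate dehydrogenase subunit and Ndufa4 a mitochondrial electron transport protein. Enpp2, the single other member in this set, ranked 16 (0.62 and 0.84). The coefficients describe 8 and 7 libraries that share depth and normalization with Ttr, and carry no test.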

How the data were processed

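RNA of sorted cells was measured by 3′ digital gene expression. For every cell type the authors deposited a separate table of normalized signal, genes by libraries. BWA 0.7.10, limma 3.34.1 and mm10 are named in the submitters' processing notes with no role; the counter, filter and scaling are not given in the sources used here. Divided by a step particular to the library, the deposited signal gave whole counts (within 0.01) for 100% of the values above 0 (45664, 18589 and 13747 values in astrocytes, microglia and monocytes), and 1 count was worth a signal of 4.22 to 76.0. Shares and ratios to Ttr were made from these counts. Library depth ran from 10039 to 302003 counts, and intervals (exact 95% binomial) and the limit of 3 counts for a 0 cover counting error only.

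shXbp1 was compared with shScrmbl in a separate fit for each cell type, with limma 3.58.1 (trend, robust) on log2(signal + 1), keeping a gene if its signal reached 1 in a number of libraries equal to the smaller group. edgeR 4.0.16 (quasi-likelihood) and DESeq2 1.42.0 on recovered counts were alternatives; edgeR called 1, 12 and 1 genes and DESeq2 0, 0 and 0. P-values were adjusted over all genes of a table (Benjamini-Hochberg). Other alternatives were the pseudocount, the filter, scaling to the table total (CPM), other denominators, a replicate block and leaving out each library. Fits were tested on simulated data. Python 3.11.15 and scipy 1.17.1 made the permutation tests. Coordinates are GENCODE M21 on GRCm38. Named were Xbp1, the 10 genes, up to 4 genes with most counts of each further list (3 for other cell types) and the 5 genes most like Ttr, less items not reported here; further choroid plexus genes named for a low p, a gap or a shared pattern, and those compared across cell types, were chosen after their values were seen. The 10 genes and all lists were chosen with earlier results of these data known.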

Additional observations from a re-analysis of the deposited data

Results flagged for a closer look

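In 43 groups of at least 4 libraries the highest or lowest value was compared with its nearest neighbour by Dixon's ratio, which chance passes in about 1 of 20 groups. It was passed 5 times, each time by shScrmbl replicate 1 as the highest of 4. In astrocytes Kl had a share of 0.0913% where the others had 0.00960% to 0.0197%, and 3.42 counts per 1000 Ttr counts where they had 0.469 to 0.887. Prlr had a share of 0.165% there, against 0.0197% to 0.0397%. In microglia Ttr had 6.25% against 1.69% to 2.07%, and Enpp2 0.592% against 0.0503% to 0.129%. These values share libraries and are not independent, and the labels do not say whether the 2 libraries numbered 1 came from the same mouse.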

How the results depend on the processing

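The number of genes called changed with the test in all 3 cell types: limma called 0, 0 and 101 in astrocytes, microglia and monocytes and edgeR 1, 12 and 1. In microglia CPM scaling gave 2, and in monocytes DESeq2, a pseudocount of 10 and a signal of at least 50 each gave 0. Leaving out 1 library in turn, by limma or edgeR, gave 0 to 8 genes in astrocytes, 0 to 23 in microglia and 0 to 1163 in monocytes, with 0 to 1, 0 to 0 and 0 to 1 members. The mean Ttr share in astrocytes was 25.5% over genes present in all 3 tables, in place of 20.8%.

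Signs turned for members with no call. In astrocytes Kcne2 was at -0.039 by DESeq2 and Calml4 at 0.034 with CPM scaling. In microglia Enpp2 was at -0.096 by DESeq2 and -0.20 with the replicate block, and Folr1 at 0.91 by edgeR and 0.86 by DESeq2. Leaving out 1 library gave log2 differences in astrocytes of -0.082 to 0.58 for Enpp2, -0.15 to 1.54 for Kl, -0.34 to 0.024 for Folr1, -0.25 to 0.40 for Kcne2, -0.17 to 1.36 for Igfbp2 and -0.18 to 0.24 for Calml4. In microglia it gave -0.31 to 0.93 for Enpp2 and -2.82 to 1.40 for Folr1. Those of Ttr (-0.52 to -0.18), Rarres2 (0.35 to 1.99), Prlr (0.55 to 2.01) and Clic6 (0.66 to 1.30) in astrocytes and of Ttr (0.087 to 0.81 and 0.20 to 0.90) and Enpp2 (0.56 to 1.33) elsewhere kept their sign. The cause was not tested.

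The Ttr share difference ran from -5.41 to -2.44 in astrocytes, 0.487 to 2.14 in microglia and 0.0141 to 0.553 in monocytes when 1 library was left out. Pooled ratios per 1000 Ttr counts ran, in astrocytes, 100.3 to 109.7 for Enpp2, 1.23 to 1.86 for Kl, 0.413 to 0.876 for Rarres2, 3.86 to 4.19 for Folr1, 3.59 to 5.03 for Prlr, 2.13 to 3.20 for Clic6, 0.719 to 0.798 for Kcne2, 0.651 to 0.943 for Igfbp2 and 2.08 to 2.45 for Calml4. In microglia they ran 61.6 to 68.8 for Enpp2 and 2.76 to 3.73 for Folr1, and in monocytes 63.3 to 70.9 for Enpp2.

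Same-numbered shScrmbl and shXbp1 libraries showed little joint deviation, with a correlation of 0.064 or less. Pairs of different numbers reached 0.061 in astrocytes and 0.042 in microglia. In monocytes, with 2 libraries a group, every value was 0.0756 in size. Such values cannot decide whether the numbers pair the libraries, as few libraries enter. A replicate block gave 0, 0 and 112 called genes and 0 members, and Ttr share differences of -3.98 (exact permutation p = 0.375), 0.617 (p = 0.5) and 0.284 (p = 1).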
